A study of Mus musculus with 29 samples.

Results

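The chow-fed control livers of a Maf1 knockout study are described here: 11 of the 29 livers in the series, 4 labelled as floxed controls (floxed Ctrl) and 7 labelled as controls of the whole-body knockout cohort (whole-body cohort Ctrl). They were chosen by their labels, as all livers of chow-fed mice that carry no Maf1 deletion. Within them, the genes described are the most abundant ones and, in each group, the 50 genes with the largest spread between mice among those with a mean of at least 5 CPM, counts relative to the scaled library size. The study asked what the loss of Maf1 does in mouse liver, in the whole body or in hepatocytes alone. Liver RNA was sequenced from each mouse. All mice were males labelled as C57BL/6, with C57BL/6J given in the study's methods for the floxed line, and were on chow, 13 to 14 weeks old, fasted overnight and then refed for 4 h before the liver was taken. The floxed Ctrl mice were homozygous for a Maf1 allele with loxP sites around the gene and carried no Alb-Cre, the transgene in which the albumin promoter drives Cre in hepatocytes. The whole-body cohort Ctrl mice are labelled as genotype Control. The groups are also lines of mice from separate cohorts, so the floxed allele, the line and whatever else differed between the cohorts cannot be told apart.

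The liver makes most of the proteins of blood plasma, so the mRNAs of secreted carriers, protease inhibitors and lipoproteins dominate hepatocyte RNA. In mice the male liver also secretes major urinary proteins (Mups), small carriers of pheromones encoded by a cluster of near-identical genes whose transcription follows the pulses of growth hormone. Refeeding after a fast raises insulin and switches hepatocytes toward lipid and sterol synthesis, while inflammatory cytokines switch on the acute phase genes, whose products enter the plasma within hours.

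The RNA of the floxed Ctrl livers gave 43564164 to 63217938 expected counts per mouse, and that of the whole-body cohort Ctrl livers 53987277 to 75682301. Of 12 listed hepatocyte markers 11 were in the table, and they summed to 96379 to 102965 CPM in floxed Ctrl mice and 97437 to 125834 CPM in whole-body cohort Ctrl mice. No marker of muscle or heart of 9 was in the table, and the neutrophil markers summed to 1.56 to 3.15 CPM in floxed Ctrl and 1.91 to 3.13 CPM in whole-body cohort Ctrl mice. In whole liver, fewer cells of a type and less RNA per cell cannot be told apart. Some libraries stood apart. The median correlation of log2(CPM) with the other mice of the group was 0.961 to 0.986 in floxed Ctrl. In whole-body cohort Ctrl it was 0.918 for mouse 2 and 0.960 for mouse 1, against 0.976 to 0.982 for mice 3 to 7. The deviation of mouse 2 from its group ran with the GC content of the genes (Spearman rho -0.77 across genes, which are not independent replicates). Mice 1 and 2 of this group lay at least 4-fold above all of mice 3 to 7 for 5 genes and at least 4-fold below all of them for 8.

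Counted per kilobase, which weighs short RNAs up, the refed livers were dominated by 7SL RNA and by mRNAs of secreted proteins. By share of counts the albumin mRNA Alb led, at 4.97% in floxed Ctrl and 6.11% in whole-body cohort Ctrl. The 7SL gene Rn7s2 took 2.14% in floxed Ctrl and 1.88% in whole-body cohort Ctrl. Per kilobase of exon, as ppm of the summed level per kilobase of each mouse, the most abundant nuclear mRNA was Alb, the albumin of plasma. It stood at 34712, 36132, 29329 and 44966 ppm in floxed Ctrl mice 1 to 4, and at 38060 to 49574 with a median of 44303.5 in whole-body cohort Ctrl mice. The groups overlapped, and the difference in CPM did not pass the test (log2(FC) -0.36 ± 0.15 (SE), adjusted p = 0.157, edgeR's quasi-likelihood test with Benjamini-Hochberg adjustment). On average the 7SL genes Rn7s1 and Rn7s2, the RNA of the signal recognition particle, lay above it in both groups, as did Rn7sk, the RNA that holds the elongation factor P-TEFb, in floxed Ctrl and the mitochondrial rRNA mt-Rnr2 in whole-body cohort Ctrl. Rn7s2 averaged 116425 ± 44662 ppm in floxed Ctrl (SD, n = 4) and 104412 ± 34786 in whole-body cohort Ctrl (SD, n = 7). Rn7sk averaged 48785 ± 3086 in floxed Ctrl and 29082 ± 7827 in whole-body cohort Ctrl, a difference in CPM that did not pass the test (adjusted p = 0.103, same edgeR test).

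Behind albumin came the Mups and the apolipoproteins. Mup7 (chromosome 4) was at 19784, 27917, 16253 and 16737 ppm in floxed Ctrl mice, and at 4351 to 22346 with a median of 16659 in whole-body cohort Ctrl mice. Another gene of the Mup region, annotated as RP24-346O11.2 (GRCm38 chr4:60817589-60821463), averaged 16190 ± 2534 ppm in floxed Ctrl and 16777 ± 2669 ppm in whole-body cohort Ctrl. Mup20 averaged 11660 ± 3469 in floxed Ctrl and 10165 ± 2986 in whole-body cohort Ctrl. Mup3 averaged 8012 ± 914 ppm in floxed Ctrl and 9309 ± 2401 in whole-body cohort Ctrl. The 19 measured members of the Mup list together reached 68212 ± 20897 ppm in floxed Ctrl and 50584 ± 16017 in whole-body cohort Ctrl. RP24-346O11.2 is not on that list, so its level is not in this sum, which is a lower bound for the region. Albumin and the other plasma carriers together reached 65463 ± 10127 ppm in floxed Ctrl, within the spread of the Mup sum, and 73422 ± 6350 ppm in whole-body cohort Ctrl. Since Mup genes are near-identical, the division of reads among single members is uncertain.

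Apoa2, a protein of high-density lipoprotein, was at 13882 to 19435 ppm in the 4 floxed Ctrl mice, against 10678 to 17586 with a median of 11938 in whole-body cohort Ctrl. Apoe, the ligand by which remnant lipoproteins are taken up, was higher in floxed Ctrl: 8981, 10443, 10040 and 13541 ppm, against 3657 to 8056 with a median of 5308 in whole-body cohort Ctrl, with no overlap. Its CPM differed by 0.89 ± 0.21 in log2 (SE, adjusted p = 0.0347, edgeR's quasi-likelihood test), the only member of 15 apolipoprotein and VLDL genes past adjusted p of 0.05, as were 2.84% of all genes tested on the higher side, and the list had a median log2(FC) of 0.15 against 0.00 over all genes tested. With each of the 11 mice left out in turn, Apoe kept its direction (log2(FC) 0.79 to 1.01) but passed only without whole-body cohort Ctrl mouse 1 or mouse 2, with adjusted p of 0.00711 to 0.0974 (edgeR). Without mouse 1, 2 members of the list passed, without mouse 2, 3 did, without both, 5 did, and 3 did with DESeq2. Over all genes, 865, 1181, 2088 and 855 were higher at that cutoff in these fits, against 362 with all mice in edgeR. Apob, the scaffold of VLDL, has a long transcript. It took 1.53% ± 0.17 of all counts in floxed Ctrl and 1.68% ± 0.24 in whole-body cohort Ctrl, which put it among the 10 genes with most counts, though it was not among the first 20 per kilobase. The other 9 of these were Alb, mt-Rnr2, mt-Co1, Rn7s2, Rn7s1, Serpina3k, Trf, Mup7 and Apoe.

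The remaining nuclear mRNAs among the first 20 were Fabp1, the fatty acid binding protein of hepatocytes, and the protease inhibitors Serpina3k and Serpina1c. Fabp1 averaged 9345 ± 2331 ppm in floxed Ctrl and 11623 ± 1962 in whole-body cohort Ctrl. Serpina3k averaged 10240 ± 586 in floxed Ctrl and 10679 ± 2753 in whole-body cohort Ctrl. Serpina1c averaged 8999 ± 1380 in floxed Ctrl and 7517 ± 773 in whole-body cohort Ctrl. The range of Fabp1 overlapped those of Serpina3k and Mup3 in both groups, so their order is not settled by these mice. Next in rank were Apoa1, Serpina1e, Mup19 and Trf, the transferrin of plasma. The plot of the 20 most abundant mRNAs shows each mouse.

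**Figure D1:**
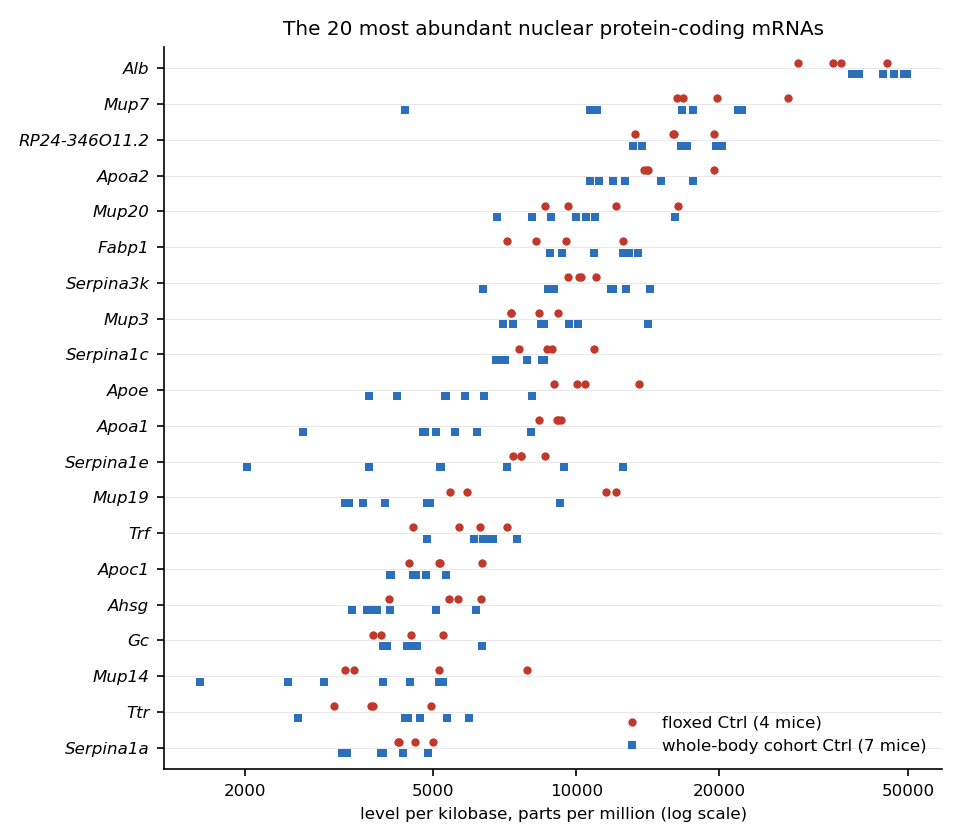
Level per kilobase of exon (ppm, log axis) of the 20 most abundant nuclear protein-coding mRNAs, with 1 red circle for each of 4 floxed Ctrl mice and 1 blue square for each of 7 whole-body cohort Ctrl mice. Alb lies between 29329 and 49574 in all 11 mice, and Apoe is the mRNA among the first 10 whose groups do not overlap.

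Mitochondrial RNA set the groups apart. Mitochondrial genes took 5.95% ± 0.43 of counts in floxed Ctrl (range 5.4 to 6.41%) and 10.6% ± 1.84 in whole-body cohort Ctrl (range 7.34 to 13.3%). The large ribosomal RNA mt-Rnr2 was at 23324, 21420, 16059 and 25037 ppm in floxed Ctrl mice and at 24865 in whole-body cohort Ctrl mouse 1, against 54575 to 63964 in mice 2 to 7 of that group. The small one, mt-Rnr1, averaged 4488 ± 1031 in floxed Ctrl and 17076 ± 5464 in whole-body cohort Ctrl, with a log2(FC) in CPM of -1.99 ± 0.27 (adjusted p = 0.00249, edgeR's quasi-likelihood test). The cytochrome oxidase subunit mt-Co1 averaged 31996 ± 6132 ppm in floxed Ctrl and 31269 ± 15979 ppm in whole-body cohort Ctrl. Among whole-body cohort Ctrl mice it was at 65026 in mouse 2 and 38409 in mouse 1, against 21578 to 24491 in mice 3 to 7. Gm28437, Gm28661, Gm10925 and Gm29216, pseudogenes side by side on chromosome 1 that are a nuclear copy of mitochondrial DNA, were also among the first 20, with group means of 8768 to 17659 in floxed Ctrl and 11039 to 22984 in whole-body cohort Ctrl. Reads of such copies and of the mitochondrial genes themselves can be exchanged.

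A small set of genes carried much of the RNA. The 10 most abundant genes held 20.6% ± 1.38 of counts in floxed Ctrl and 23.6% ± 1.31 in whole-body cohort Ctrl. The first 100 held 49.8% ± 1.73 in floxed Ctrl and 53.0% ± 1.79 in whole-body cohort Ctrl. Among nuclear mRNAs alone, counted per kilobase, the first 10 made up 26.1% ± 0.77 in floxed Ctrl and 27.4% ± 2.22 in whole-body cohort Ctrl, and the first 100 made up 59.7% ± 1.76 in floxed Ctrl and 60.0% ± 1.97 in whole-body cohort Ctrl. By list, serpins summed to 42304 ± 3646 ppm in floxed Ctrl and 37858 ± 8180 in whole-body cohort Ctrl, and apolipoproteins to 48569 ± 6233 in floxed Ctrl and 35650 ± 5335 in whole-body cohort Ctrl. Coagulation and complement factors summed to 14468 ± 4069 ppm in floxed Ctrl and 12907 ± 1820 ppm in whole-body cohort Ctrl. The 79 cytosolic ribosomal proteins summed to 11164 ± 1153 ppm in floxed Ctrl and 9436 ± 766 ppm in whole-body cohort Ctrl.

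Genes that answer to fasting and refeeding spanned a wide range of levels. Scd1, the desaturase that makes monounsaturated fatty acids, was the most abundant of those listed and averaged 1009 ± 658 ppm in floxed Ctrl and 1444 ± 743 in whole-body cohort Ctrl. Fasn, the fatty acid synthase, averaged 82.7 ± 39.0 in floxed Ctrl and 38.3 ± 17.2 in whole-body cohort Ctrl. Srebf1, the gene of the lipogenic factor SREBP-1, averaged 27.4 ± 18.6 in floxed Ctrl and 13 ± 6.4 in whole-body cohort Ctrl. The gluconeogenic genes were still present after 4 h of refeeding. Pck1 averaged 386 ± 247 in floxed Ctrl and 232 ± 64.1 in whole-body cohort Ctrl, and G6pc 68.9 ± 36.9 in floxed Ctrl and 51 ± 15.9 in whole-body cohort Ctrl. None of these differences passed the test: the log2(FC) was 1.04 ± 0.33 for Fasn (SE, adjusted p = 0.0800), -0.61 ± 0.36 for Scd1 (adjusted p = 0.299) and 0.65 ± 0.39 for Pck1 (adjusted p = 0.312, edgeR's quasi-likelihood test).

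The spread between mice was measured as the SD of log2(CPM). At 5 CPM, counting alone gives a coefficient of variation of 6.78% at the depth of the floxed Ctrl libraries and 6.09% at that of the whole-body cohort Ctrl libraries. The common biological coefficient of variation was 18.5% over 4 floxed Ctrl mice and 22.5% over 7 whole-body cohort Ctrl mice, and 13.6% over whole-body cohort Ctrl mice 3 to 7. The median SD of log2(CPM) was 0.16 over 8983 genes in floxed Ctrl and 0.23 over 8984 genes in whole-body cohort Ctrl, and 0.12 in mice 3 to 7. An SD above 1, a spread of more than 2-fold, was seen for 74 genes in floxed Ctrl and 109 in whole-body cohort Ctrl, and for 40 in mice 3 to 7. The lists of 50 ended at an SD of 1.11 with Saa4 in floxed Ctrl, next to Gm43611 outside it at 1.11, and at 1.32 with Hbb-bs in whole-body cohort Ctrl, next to Gm42418 at 1.32. The SD chose these lists, so the values within the choosing group are a description.

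In floxed Ctrl, 48 of the 50 most variable genes were protein coding. Of the 50, 35 were farthest from the others in mouse 1, which was the high mouse for 24 and the low mouse for 11. The mean of 5 CPM asked of each gene includes mouse 1, so the filter favours genes high in it. Mt2, Cxcl1, Alpk1, Thbs1, Tlr2 and Tnfaip3, each under 5 CPM in every other floxed Ctrl mouse, are on the list only through mouse 1. The liver of mouse 1 carried high mRNA of acute phase and stress genes. Saa1 and Saa2 encode serum amyloid A, the classical acute phase proteins of mice. Cxcl1 encodes a chemokine that draws neutrophils, and Mt1 and Mt2 encode metallothioneins, which bind zinc. The 250 bases before the start sites of these 5 genes are printed because their mRNAs were high together in the same mouse (RefSeq, build GRCm38.p6, 5′ to 3′ along the gene). Saa1 lies at chr7:46742981-46743230 on the minus strand, Saa2 at chr7:46751583-46751832 on the plus strand, Cxcl1 at chr5:90890995-90891244, Mt2 at chr8:94172368-94172617 and Mt1 at chr8:94178839-94179088, all 3 on the plus strand. Both strands were searched. Capitals mark, in Saa1, Saa2 and Cxcl1, matches to an NF-κB motif (GGG, any 2 bases, then TTTCC) or to a C/EBP motif (TTGCNCAA), and in Mt1 and Mt2 matches to the core of the metal response element (TGCNCNC).
Saa1: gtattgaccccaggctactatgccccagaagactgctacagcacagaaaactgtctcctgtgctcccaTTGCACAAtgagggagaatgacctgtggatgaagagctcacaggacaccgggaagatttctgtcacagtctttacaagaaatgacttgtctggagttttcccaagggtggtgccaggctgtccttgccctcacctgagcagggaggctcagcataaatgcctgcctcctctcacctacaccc
Saa2: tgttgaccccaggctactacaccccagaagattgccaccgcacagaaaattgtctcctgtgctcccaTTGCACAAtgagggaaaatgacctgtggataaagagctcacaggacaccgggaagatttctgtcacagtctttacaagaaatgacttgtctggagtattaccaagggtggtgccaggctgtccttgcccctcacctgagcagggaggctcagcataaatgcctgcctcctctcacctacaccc
Cxcl1: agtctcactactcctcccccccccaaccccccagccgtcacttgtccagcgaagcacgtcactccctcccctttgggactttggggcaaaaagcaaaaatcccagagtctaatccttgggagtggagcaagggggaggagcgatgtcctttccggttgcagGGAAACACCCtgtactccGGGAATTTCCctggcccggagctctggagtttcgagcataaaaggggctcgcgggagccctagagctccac
Mt2: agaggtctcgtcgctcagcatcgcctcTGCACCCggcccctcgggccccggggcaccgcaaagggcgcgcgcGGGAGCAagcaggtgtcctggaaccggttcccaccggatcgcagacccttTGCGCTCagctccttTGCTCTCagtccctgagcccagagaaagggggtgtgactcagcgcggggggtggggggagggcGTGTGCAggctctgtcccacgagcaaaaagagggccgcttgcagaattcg
Mt1: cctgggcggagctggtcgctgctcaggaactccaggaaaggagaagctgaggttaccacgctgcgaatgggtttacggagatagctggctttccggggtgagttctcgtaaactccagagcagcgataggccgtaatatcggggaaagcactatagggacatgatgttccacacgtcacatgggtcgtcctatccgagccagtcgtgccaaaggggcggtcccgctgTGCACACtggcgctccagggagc

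Saa1 and Saa2 each held 1 C/EBP match, the same 8 letters in both, which start 182 and 183 bases before the start sites. Cxcl1 held 2 NF-κB matches, Mt2 5 metal response cores and Mt1 1. Of 32851 RefSeq promoters of the same length, 1.41% held the NF-κB letters, 2.61% the C/EBP letters and 44.4% the metal response core, which is short and was also present in Saa1 (2 matches) and Saa2 (1 match), where it is not in capitals. A match is a description of letters and shows no binding.

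Saa1 was at 287 CPM in floxed Ctrl mouse 1 and at 14.1, 9.51 and 10.6 in mice 2 to 4, against 5.29 to 33.0 with a median of 13.1 in whole-body cohort Ctrl. Saa2 was at 168 CPM in mouse 1 and at 5.28, 4.16 and 4.45 in mice 2 to 4, against 2.60 to 13.8 with a median of 4.24 in whole-body cohort Ctrl. For both genes mouse 1 lay above all 10 other livers, while the other 3 floxed Ctrl mice lay within the range of whole-body cohort Ctrl. Lcn2, a siderophore-binding protein of innate immunity, was at 61.7 CPM in mouse 1, against 3.99, 4.80 and 5.47 in mice 2 to 4. Saa4, Orm2 and Steap4 of the acute phase list were in the same list of 50, with Steap4, a metalloreductase, at 942 CPM in mouse 1 and 118, 111 and 142 in mice 2 to 4.

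Mouse 1 was the highest of the 4 floxed Ctrl mice for 18 of 18 acute phase genes at a mean of 5 CPM or more. That mean includes mouse 1, and Saa2 and Lcn2 reach it only through mouse 1. Mouse 1 was 1.15-fold (Crp) to 37.5-fold (Saa2) above the median of the other 3, with a median log2 difference of 1.13. Over all 8983 genes it was the highest mouse for 37.8% and the lowest for 29.96%. Haptoglobin (Hp) was at 3422 CPM in mouse 1 and 1871, 2392 and 2140 in mice 2 to 4, and Crp at 186 CPM in mouse 1 and 165, 149 and 162 in mice 2 to 4. Kupffer cell markers were highest in mouse 1 for 10 of 14, with a median log2 difference of 0.30, and the Kupffer list summed to 280 to 394 CPM over the 4 mice. Interferon response genes were highest in it for 23 of 27, with a median difference of 0.50. The part of these cells in the acute phase values was not tested.

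Cxcl1 was at 121 CPM in mouse 1 and at 3.60, 3.12 and 4.91 in mice 2 to 4, against 2.33 to 6.04 with a median of 4.72 in whole-body cohort Ctrl. Mt2 was at 90.5 CPM in mouse 1 and at 1.45, 1.29 and 0.777 in the others. Mt1 was at 319 CPM in mouse 1 and at 22.2, 21.7 and 9.12 in the others, against 1.03 to 12.7 with a median of 5.55 in whole-body cohort Ctrl. Mouse 1 was again the only high liver, and for Mt1 mice 2 and 3 also lay above all whole-body cohort Ctrl mice. Hspa1b, an inducible HSP70, was at 180 CPM in mouse 1, 6.87 in mouse 2, 37.8 in mouse 3 and 8.84 in mouse 4. All 23 heat shock and ER chaperone genes were highest in mouse 1, with a median log2 difference of 1.10, and 13 of them were more than 2-fold above the median of the others. Among immediate early genes, which respond to signals within minutes, 11 of 14 were highest in it, with a median difference of 0.88. The mean CPM that admitted these 14 includes mouse 1, and 10 genes of the list were admitted in whole-body cohort Ctrl.

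Further genes were high in the same liver. Alpk1, a kinase that senses bacterial sugar nucleotides, was at 18.2 CPM in mouse 1 and 2.53, 1.52 and 2.13 in mice 2 to 4. Tifa, the adaptor on which that kinase acts, was at 73.7 CPM in mouse 1 and 11.8, 7.58 and 8.73 in the others. Thbs1, which encodes thrombospondin 1, was at 19.61 CPM in mouse 1 and 3.09, 1.98 and 1.87 in the others. Tlr2, a receptor for bacterial lipoproteins, and Tnfaip3, an inhibitor of NF-κB signalling, were at 17.2 and 19.7 CPM in mouse 1 and at most 2.81 and 3.37 in the others, a pair chosen after the values were seen. Igfbp1, a hepatokine that insulin represses, was at 40.5 CPM in mouse 1 and 6.14, 5.49 and 10 in mice 2 to 4, and Angptl4, an inhibitor of lipoprotein lipase, was at 66.9 CPM in mouse 1 and 15.9, 9.74 and 14.4 in the others. A smaller set was low in mouse 1. Btnl9, a butyrophilin-like membrane protein, was at 0.339 CPM in mouse 1 and 6.66, 8.01 and 16.2 in the others, against 11.8 to 20.8 with a median of 14.3 in whole-body cohort Ctrl. Pttg1, the securin of the cell cycle, was at 0.772 CPM in mouse 1 and 10.3, 9.48 and 18.2 in the others. Clec2h, a C-type lectin, was at 0.754 CPM in mouse 1 and 7.95, 5.19 and 7.74 in the others. Car3, a carbonic anhydrase of adipocytes and hepatocytes, was at 155 CPM in mouse 1 and 938, 1640 and 1370 in the others, against 459 to 1699 with a median of 911 in whole-body cohort Ctrl.

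The mRNAs of sterol synthesis were low in floxed Ctrl mouse 1. This pathway makes cholesterol and is under the factor SREBP-2, which Insig1 holds in the ER when sterols are plentiful and of which Insig1 is also a target. Insig1 was at 113 CPM in mouse 1 and at 686, 717 and 624 in mice 2 to 4, against 203 to 482 with a median of 370.2 in whole-body cohort Ctrl. All 24 genes of the sterol synthesis list had their lowest value in mouse 1, with a median log2 difference of -1.57 from the other 3 mice, and 19 were more than 2-fold lower. Together they summed to 2191 to 7227 CPM over the 4 mice. The 20 fatty acid synthesis and refeeding genes had their lowest value in it for 12, with a median difference of -0.25. In whole-body cohort Ctrl the low mouse for sterol synthesis was mouse 5, lowest for 17 of 24 with a median log2 difference of -0.96, and that mouse was the highest for 19 of 28 urea cycle and amino acid genes (median 0.54).

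**Figure D2:**
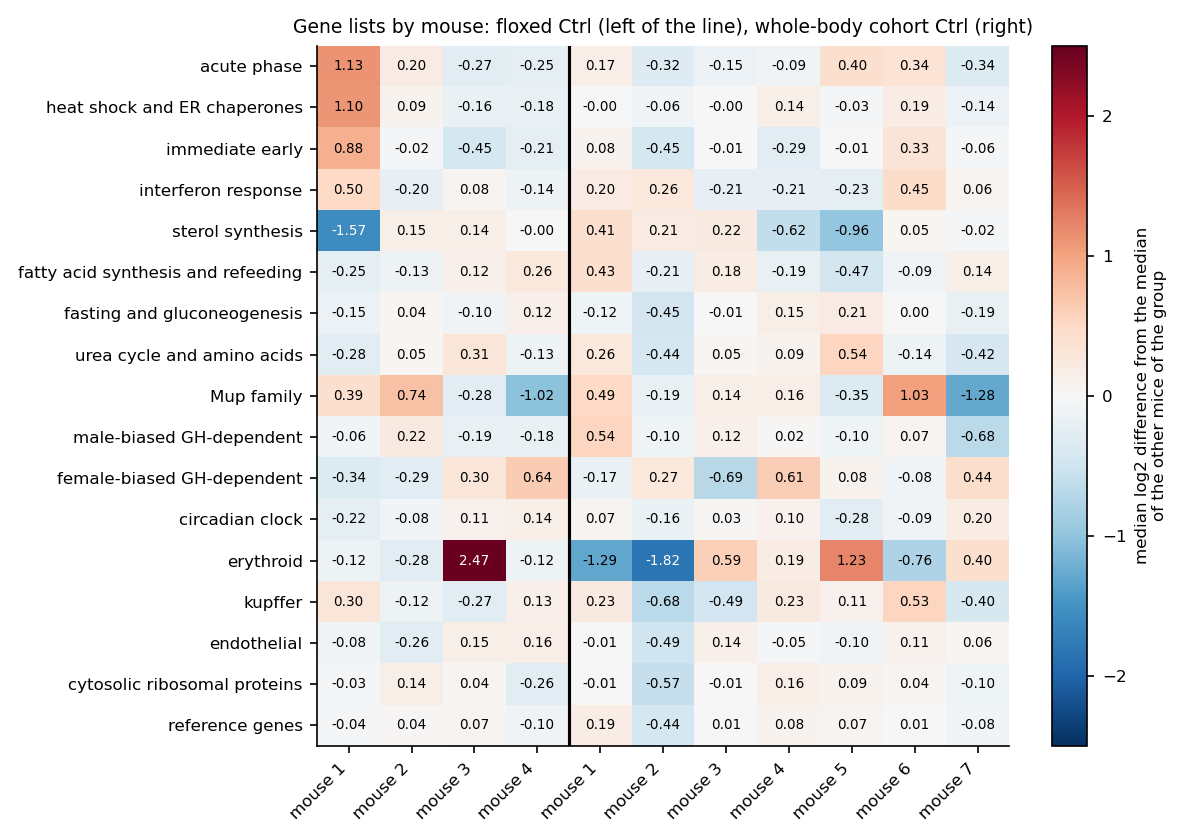
Median log2 difference of each gene list from the median of the other mice of the group, by mouse, with the 4 floxed Ctrl mice left of the line and the 7 whole-body cohort Ctrl mice right of it. Floxed Ctrl mouse 1 stands at 1.13 for acute phase, 1.10 for chaperones and -1.57 for sterol synthesis genes, floxed Ctrl mouse 3 at 2.47 for erythroid markers, and whole-body cohort Ctrl mouse 7 at -1.28 for the Mup family.

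Some genes on the list had another pattern. Mouse 3 was the high floxed Ctrl mouse for the globins, the oxygen carriers of red cells. Hbb-bs was at 15.4, 12.3, 104 and 11.8 CPM in mice 1 to 4, and Hba-a2 and Hba-a1 were at 47.6 and 43.8 CPM in mouse 3 and at most 8.76 and 8.55 in the others. All 5 erythroid markers at 5 CPM or more were highest in that mouse, with a median log2 difference of 2.47, and the erythroid list summed to 91.0 to 284 CPM over the floxed Ctrl mice and 70.3 to 200 CPM over whole-body cohort Ctrl mice. The share of blood left in the tissue was not measured. A single low mouse put 2 more genes on the list: Pde2a (as ENSMUSG00000030653), a cyclic nucleotide phosphodiesterase, was at 12.2, 9.90, 0.184 and 8.66 CPM, and Gm20547 was at 10.2, 23.6, 9.23 and 0.0826 CPM in mice 1 to 4. Gadd45g, a stress-inducible gene of growth arrest, was at 24.1, 22.6, 3.08 and 4.41 CPM, high in mice 1 and 2. Socs2, a feedback inhibitor of growth hormone signalling, was at 35.4, 13.7, 3.15 and 5.16 CPM, and Cyp2c40, a P450 enzyme of the female-biased list, at 34.7, 11.3, 5.33 and 7.22 CPM. Myc, a transcription factor of growth, was at 6.5, 13.8, 2.34 and 2.65 CPM. The mitochondrial mt-Nd4l was at 6.18, 6.14, 1.52 and 10.9 CPM in floxed Ctrl mice and at 18.1 to 133 CPM in whole-body cohort Ctrl mice. Its end overlaps mt-Nd4, and only reads from the shared bases are not unique to it.

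**Figure D3:**
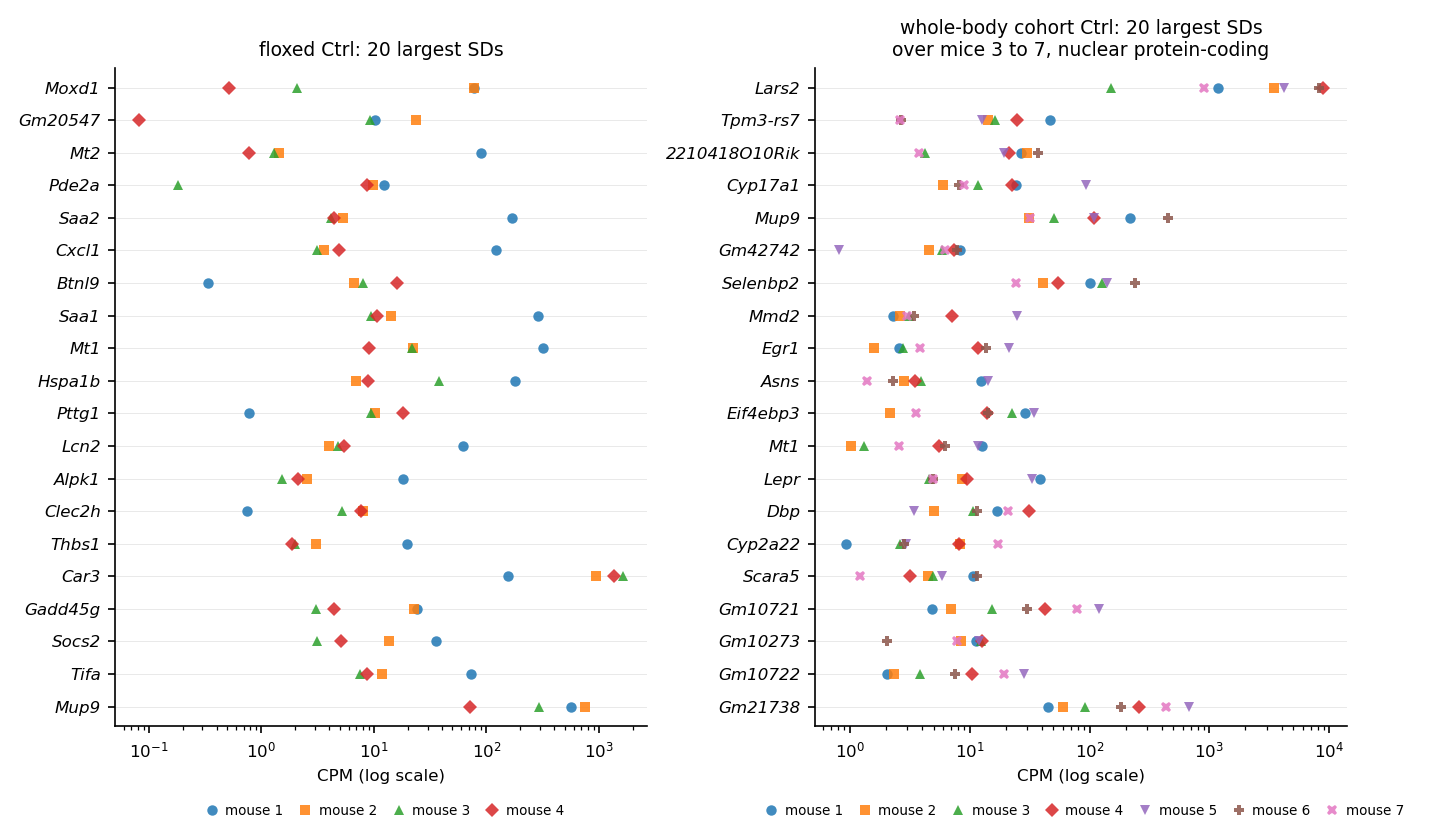
CPM (log axis) of each mouse for the 20 genes with the largest SD in floxed Ctrl (left, 4 mice) and the 20 nuclear protein-coding genes with the largest SD over whole-body cohort Ctrl mice 3 to 7 (right, all 7 mice drawn), with a symbol and colour for each mouse number. In floxed Ctrl the blue circle of mouse 1 stands apart for most genes, such as Saa1 at 287 CPM against 9.51 to 14.1. In whole-body cohort Ctrl no mouse leads throughout.

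The 50 most variable genes of whole-body cohort Ctrl were of another kind: 31 were protein coding, 6 were pseudogenes and 13 were other RNAs. Mouse 2 was farthest from the others for 22, for 18 of them as the low mouse, and mouse 1 for 15, for 13 as the low mouse. The largest SD was that of AY036118, a long noncoding RNA, at 2310, 6010, 0, 4591, 1366, 3906 and 0 CPM in mice 1 to 7. The 0 values of mice 3 and 7 allow up to 0.0482 and 0.0461 CPM, counting error only. Rn18s-rs5, a copy of 18S ribosomal RNA, was at 643 to 22360 CPM with a median of 5649, and Lars2, the mitochondrial leucyl-tRNA synthetase, was at 1172, 3473, 150, 8829, 4199, 8233 and 904 CPM. Mouse 3 had the lowest value of Rn18s-rs5 and Lars2 and shared that of AY036118 with mouse 7. In floxed Ctrl, Lars2 was at 14.8 to 28.4 CPM and Rn18s-rs5 at 59.6 to 116.

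Several genes separated mice 1 and 2 from mice 3 to 7. Taf9, a subunit of the general transcription factor TFIID, was at 16.4 and 23.8 CPM in whole-body cohort Ctrl mice 1 and 2 and at 0.584 to 2.43 CPM in mice 3 to 7, while floxed Ctrl mice were at 11.8 to 16.7. Rps16, a protein of the small ribosomal subunit, was at 9.36 and 6.30 CPM in mice 1 and 2 and at 58.7 to 69.0 in mice 3 to 7, while floxed Ctrl mice were at 27.6 to 48.3. The pseudogene Ftl2-ps was at 0 in mice 1 and 2, which allows up to 0.0396 and 0.0511 CPM, and at 28.7 to 49.0 CPM in mice 3 to 7. Rpl36a-ps3, Gm12435, Gm15920 and Gm20708 had the pattern of Taf9, with 10.5 to 36.5 CPM in mice 1 and 2 and 0 to 2.20 CPM in mice 3 to 7. Gm4735, a pseudogene, and Gm23262, a small nucleolar RNA, had that of Rps16, with 0.138 to 1.82 CPM in mice 1 and 2 and 11.2 to 29.7 CPM in mice 3 to 7. Of the 13 genes that lay at least 4-fold apart in this way, 10 were among the 50 most variable, and 8 are annotated as pseudogenes, whose reads the counting could split with a parent gene. RP23-145I16.3 and Gm12744 were at 0 in mouse 1 alone and the antisense RNA Sardhos in mouse 2 alone. The small nuclear RNA genes Gm23444 and Gm23472, which had equal counts in most libraries, were at 0.631 CPM in mouse 7 and at 13.5 to 38.0 CPM in mice 1 to 6.

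The ribosomal protein mRNAs Rpl36, Rps16, Rps29 and Rplp2 were on the list, with mouse 2 or mice 1 and 2 low. Rpl36 was at 1.09 CPM in mouse 2 and 12.6 to 25.9 in the other 6, Rps29 at 4.32 and 43.84 to 70.01, and Rplp2 at 3.01 and 26.5 to 41.6. Of the 79 ribosomal protein genes, 51 (64.6%) were lowest in mouse 2, with a median log2 difference of -0.57, as were 38.3% of all 8984 genes with a median of -0.04. In all, 0 of 79 were among the 10% of genes with the largest SD in floxed Ctrl (background 10%), 21 in whole-body cohort Ctrl, and 3 in mice 3 to 7. In floxed Ctrl, all 79 were lowest in mouse 4, as were 27.9% of all genes, with a median log2 difference of -0.26. The histone mRNA Hist1h4d was also low in mouse 2, at 0.207 CPM, and at 2.16 to 12.8 CPM in the other 6. Nnmt, the nicotinamide N-methyltransferase, was at 83.0, 2.64, 38.1, 51.3, 153, 56.1 and 23.6 CPM in mice 1 to 7, with mouse 2 low and mouse 5 high. Without mice 1 and 2, 26 of the 50 genes remained on the list.

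The 50 most variable genes of whole-body cohort Ctrl mice 3 to 7, a list chosen after the values were seen, held several enzymes, a receptor and transcription factors. Cyp17a1, the steroid 17-alpha-hydroxylase, was at 11.6, 22.5, 94.0, 8.09 and 8.92 CPM in mice 3 to 7. Egr1, an immediate early transcription factor, was at 2.79, 11.8, 21.2, 13.7 and 3.87 CPM. Asns, the asparagine synthetase induced when amino acids are short, was at 3.90, 3.52, 14.2, 2.28 and 1.40 CPM, and Lepr, the leptin receptor, at 4.56, 9.47, 32.9, 4.94 and 4.96 CPM. Among mice 3 to 7, mouse 5 was the high mouse for all 4. In mice 1 and 2, Lepr was at 38.69 and 8.679 CPM, so mouse 1 lay above mouse 5. Asns was at 12.35 and 2.824 CPM in mice 1 and 2, Cyp17a1 at 24.42 and 5.975, and Egr1 at 2.565 and 1.601. Dbp, a transcription factor under the circadian clock, was lowest in mouse 5, at 3.44 CPM against 10.7 to 31.1 in the other 4. Mouse 5 was the farthest for 16 of the 50 genes on this list and mouse 7 for 13, for 12 of them as the low mouse. A further set of annotated genes of unknown function, Gm10721, Gm21738, Gm10801, Gm10800 and Gm26870 among them, ran together in these mice: Gm10721 was at 15.3, 42.7, 121, 30.2 and 78.9 CPM and Gm10800 at 1030, 2636, 7092, 1961 and 4687 CPM, with mice 5 and 7 high.

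The Mup family varied in both groups. Mup9 was at 566, 754, 293 and 71.8 CPM in floxed Ctrl mice 1 to 4, and at 217, 31.0, 50.7, 109, 109, 453 and 32.1 CPM in whole-body cohort Ctrl mice 1 to 7. Mup15 was at 3614, 5364, 1833 and 873 CPM in floxed Ctrl mice, and at 292 to 2379 with a median of 680 in whole-body cohort Ctrl mice. Most members moved together by mouse. Reads of near-identical genes can be divided among members, so the members are not separate measurements. In floxed Ctrl 14 of 18 were highest in mouse 2 and 17 of 18 lowest in mouse 4, with median log2 differences of 0.74 and -1.02. Over all genes, 18.7% were highest in that mouse 2 and 27.9% lowest in that mouse 4. In whole-body cohort Ctrl 14 of 18 were highest in mouse 6 and 13 of 18 lowest in mouse 7, with medians of 1.03 and -1.28. There, 10.8% of all genes were highest in mouse 6 and 12.2% lowest in mouse 7. Among the 10% of genes with the largest SD were 14 of 18 Mups in floxed Ctrl and 16 of 18 in whole-body cohort Ctrl, and 17 of 18 in mice 3 to 7, against 10% of all genes. The list of other male-biased genes under growth hormone was lowest in whole-body cohort Ctrl mouse 7 too, for 15 of 21 with a median of -0.68. In floxed Ctrl mouse 4, the low one for Mups, it had a median of -0.18. Mup2 was at 16.9 to 50.7 CPM in floxed Ctrl and 14.8 to 288 CPM in whole-body cohort Ctrl.

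Of the 50 genes of each list, 5 were in both, or 10% of each list, where 0.557% of the genes at 5 CPM or more are on each list: Moxd1, Mt1, Mup9, Hbb-bs and Eif4ebp3. Moxd1, a relative of dopamine beta-hydroxylase, had the largest SD in floxed Ctrl (3.65) and an SD of 3.43 in whole-body cohort Ctrl. It was at 77.1, 77.3, 2.07 and 0.512 CPM in floxed Ctrl mice, and at 71.7 CPM in whole-body cohort Ctrl mouse 1, against 0.0280 to 4.33 in mice 2 to 7. So 3 of 11 livers were at 71.7 to 77.3 CPM and the other 8 were at or below 4.33. Eif4ebp3, an inhibitor of the cap-binding factor eIF4E, was at 59.8, 46.2, 44.2 and 10.1 CPM in floxed Ctrl mice and at 2.15 to 34.3 CPM with a median of 14.1 in whole-body cohort Ctrl mice. Against the list of mice 3 to 7, 7 genes were shared with floxed Ctrl: Mt1, Mup9, Eif4ebp3, Scara5, Igfbp1, Orm2 and Mup15. Leaving out floxed Ctrl mouse 1 kept 18 of the 50 genes of its list, and leaving out any other floxed Ctrl mouse kept 38 to 42.

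**Figure D4:**
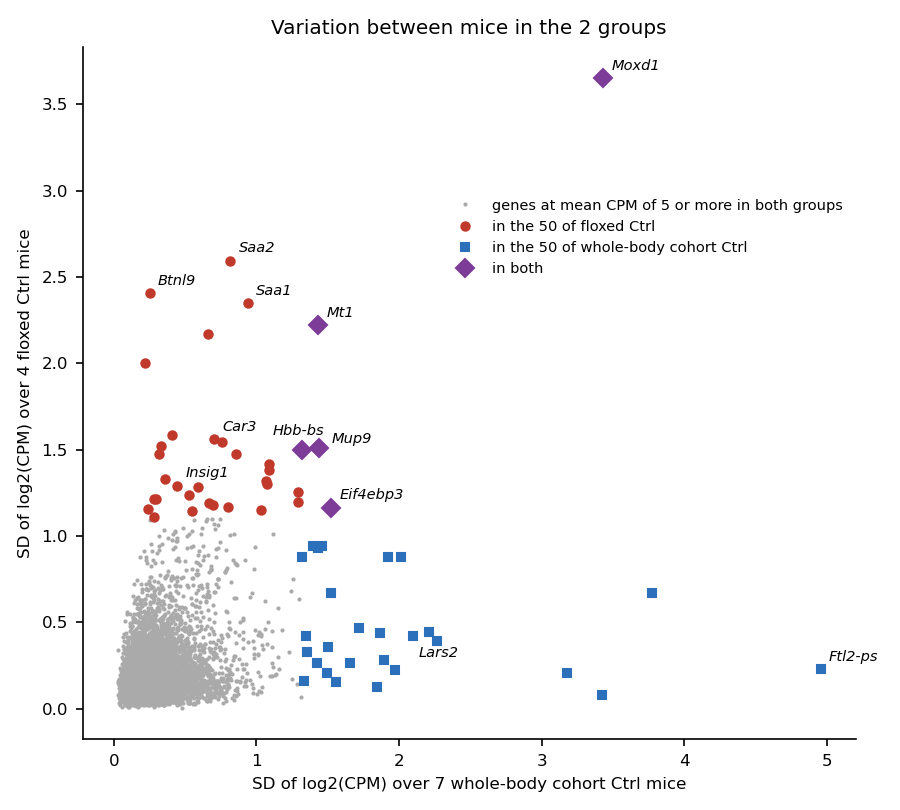
SD of log2(CPM) of each gene over 7 whole-body cohort Ctrl mice (horizontal) and over 4 floxed Ctrl mice (vertical), for genes at a mean of 5 CPM or more in both groups. Red circles and blue squares are genes on the list of 50 of 1 group, and purple diamonds the 5 genes on both. Moxd1 has an SD of 3.65 in floxed Ctrl and 3.43 in whole-body cohort Ctrl, and 24 of the 35 measured genes of the floxed Ctrl list are among the 10% with the largest SD in whole-body cohort Ctrl.

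The floxed Ctrl list was also variable in mice it was not chosen from. Of the 35 of its genes at 5 CPM or more in whole-body cohort Ctrl, 24 were among the 10% with the largest SD there, with a median SD of 0.70 against 0.23 over all genes. In the other groups of the series, scaled together, 35 of 44 were in that top 10% in chow Maf1hep-/- livers and 24 of 33 in chow Maf1-/- livers. On the high-fat (HF) diet, 23 of 27 were in HF Maf1hep-/- livers and 25 of 28 in HF floxed Ctrl livers, whose libraries hold 25544816 to 32319706 counts, all whole numbers, where 69.8% to 74.8% of the values of chow libraries are whole. The background is 10% in each. Of the whole-body cohort Ctrl list, 20 of 33 were in the top 10% in floxed Ctrl on that scale, and 41 of 41 in Maf1-/- livers of the same cohort, in which Taf9 and Rps16 also fell into separate levels. Beyond Mups, sterol synthesis genes were in the top 10% for 21 of 24 in floxed Ctrl, 12 of 24 in whole-body cohort Ctrl and 20 of 24 in mice 3 to 7, and acute phase genes for 13 of 18 in floxed Ctrl, 6 of 16 in whole-body cohort Ctrl and 12 of 16 in mice 3 to 7.

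At the other end, 10 genes had the smallest spread in both groups: Exoc8, Kdelr1, Zak, Tubgcp3, Gapvd1, Dis3l, Nhlrc3, Rnf14, Cyfip1 and Vps33b. Kdelr1, the receptor that returns ER proteins from the Golgi, averaged 41.9 CPM with an SD of 0.02 in log2 in floxed Ctrl and 44.3 CPM with an SD of 0.04 in whole-body cohort Ctrl. Exoc8, a subunit of the exocyst, averaged 15.6 CPM with an SD of 0.03 in floxed Ctrl and 14.5 CPM with an SD of 0.04 in whole-body cohort Ctrl. They were picked by their SD, and no test was made. Among common reference genes, Gapdh had an SD of 0.06 in floxed Ctrl and 0.37 in whole-body cohort Ctrl, and Hprt of 0.02 in floxed Ctrl and 0.29 in whole-body cohort Ctrl. Ywhaz had an SD of 0.12 in floxed Ctrl and 0.14 in whole-body cohort Ctrl. In mice 3 to 7 alone the SD was 0.09 for Gapdh, 0.06 for Hprt and 0.13 for Ywhaz. Over the 20 listed reference genes the median SD was 0.11 in floxed Ctrl, 0.33 in whole-body cohort Ctrl and 0.12 in mice 3 to 7, and mouse 2 was the lowest for 12 of the 20.

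Set against whole-body cohort Ctrl, floxed Ctrl livers had more mRNA of many histone genes, less of most mitochondrially encoded genes, and other levels of many further genes. Of 12752 genes tested, 695 passed adjusted p of 0.05 in edgeR's quasi-likelihood test, 362 higher (2.84%) and 333 lower (2.61%) in floxed Ctrl. With a log2(FC) above 1 or under -1 as well, 226 were called (1.77%), 121 higher (0.949%) and 105 lower (0.823%), and for 177 of them the groups did not overlap, as they did not for 9.25% of all genes. Of the 226, 146 were nuclear protein-coding genes and 11 lie on the mitochondrial genome. Before the filter of the test, the counts held 11777 nuclear protein-coding genes, 1188 other nuclear genes and 18 mitochondrial ones. Nuclear protein-coding genes were thus a smaller part of the calls than of all genes, and mitochondrial ones a larger part. These p-values measure only the spread between these mice, and the groups are also 2 cohorts. Without whole-body cohort Ctrl mice 1 and 2, 461 were called and 213 of the 226 remained. The count moved with single mice: it was 98, 104 and 139 without floxed Ctrl mouse 2, 3 or 4, it was 136, 134 and 149 without whole-body cohort Ctrl mouse 4, 5 or 6, and it was 396 without whole-body cohort Ctrl mouse 1. GC content ran with direction, at a median of 59.2% for genes called higher, 43.8% for genes called lower and 49.1% over all genes, and its part in these differences was not tested.

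Camk2b, the beta chain of the calcium/calmodulin-dependent kinase II, was at 6.76, 12.8, 7.39 and 5.04 CPM in floxed Ctrl mice, and at 0 to 0.210 CPM with a median of 0.0583 in whole-body cohort Ctrl mice. The groups were far apart, with a log2(FC) of 6.71 ± 0.50 (adjusted p = 2.42e-05, edgeR's quasi-likelihood test). Galnt2, which starts O-linked glycans, was at 10.4, 4.69, 9.78 and 7.04 CPM in floxed Ctrl mice and at 0.350 to 1.40 CPM with a median of 0.776 in whole-body cohort Ctrl mice. Its log2(FC) was 3.40 ± 0.34 (adjusted p = 0.000278, edgeR). Erdr1 was at 4.38 to 10.3 CPM in floxed Ctrl and 0.293 to 2.05 in whole-body cohort Ctrl. AC125099.1 and Gm44341, annotated microRNA genes with the same count in every library, were at 7.40 to 9.14 CPM in floxed Ctrl and 0 to 0.224 CPM in whole-body cohort Ctrl, and RP24-390M17.1, a long noncoding RNA, at 56.2 to 68.8 CPM in floxed Ctrl and 1.69 to 10.9 CPM in whole-body cohort Ctrl. In the deepest whole-body cohort Ctrl library a count of 0 allows up to 0.0396 CPM and in the shallowest up to 0.0556. Rpph1, the RNA of RNase P and a transcript of RNA polymerase III, was at 1734, 1367, 3086 and 1016 CPM in floxed Ctrl and at 32.9 to 427 CPM with a median of 278 in whole-body cohort Ctrl, a log2(FC) of 2.86 ± 0.49 (adjusted p = 0.00782, edgeR).

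Histone genes were often called: 16 of 35 tested were called higher and 1 lower, with a median log2(FC) of 1.25 against 0.00 over all genes, in a set named by symbol after the values were seen. Over all genes tested, 0.949% were called higher and 0.823% lower. Hist2h2aa2 was at 26.9 to 53.8 CPM in floxed Ctrl and at 0 to 4.98 CPM with a median of 2.87 in whole-body cohort Ctrl. Hist1h4d was at 34.4 to 51.9 CPM in floxed Ctrl and 0.207 to 12.8 CPM in whole-body cohort Ctrl, and Hist1h3e at 5.93 to 9.35 CPM in floxed Ctrl and 0.103 to 2.65 CPM in whole-body cohort Ctrl, with no overlap in any of the 3. Without floxed Ctrl mouse 2 or 3, or without whole-body cohort Ctrl mouse 4, Hist1h4d kept its direction and missed the adjusted cutoff. Replication-dependent histone mRNAs, as background, end in a stem-loop and carry no poly(A) tail. Mouse 2 had the lowest value in whole-body cohort Ctrl for all 3. Immediate early genes were called higher for 3 of 21, namely Gadd45g, Junb and Jund. Without floxed Ctrl mouse 1, Junb had a log2(FC) of 1.87 and no longer passed (adjusted p = 0.0702, edgeR). Mt1, Hspa1b and Lcn2, for which floxed Ctrl mouse 1 stood far above the rest, were also called higher. Without that mouse, 1 of 21 immediate early genes was called higher, as also without whole-body cohort Ctrl mouse 3, 4 or 5, and neither Mt1 nor Hspa1b was called. Of 20 acute phase genes 2 were called higher with all mice or without whole-body cohort Ctrl mouse 1 or 2, and 1 was with any other mouse left out. The median log2(FC) of the acute phase list was -0.17 without floxed Ctrl mouse 1 and 0.42 with all mice.

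Genes lower in floxed Ctrl were led by repeat-like transcripts. Lars2 averaged 20.5 CPM in floxed Ctrl and 3851 CPM in whole-body cohort Ctrl (log2(FC) -7.55 ± 1.12, adjusted p = 0.00348, edgeR). Rn18s-rs5 averaged 92.3 CPM in floxed Ctrl and 7439.8 CPM in whole-body cohort Ctrl (log2(FC) -6.34 ± 0.96, adjusted p = 0.00400, edgeR). Gm10721, Gm10801, Gm21738, Gm26870, Gm11168, Gm10800, Gm10719 and Gm10717, genes of no known function on chromosomes 2, 9 and 14, had log2(FC) of -7.91 to -6.23, and all 12 of the repeat-like set to which they belong, a set named after the values were seen, were called lower. Gm10800 was at 57.7, 36.0, 12.1 and 28.2 CPM in floxed Ctrl and at 537 to 7092 CPM with a median of 1961 in whole-body cohort Ctrl. Mitochondrially encoded mRNAs were called lower for 9 of 13, with a median log2(FC) of -1.66, where 0.823% of all genes tested were called lower. Without floxed Ctrl mouse 2, 6 of 13 were called lower, and 41 genes were in all. Kupffer cell markers were called lower for 2 of 16, Adgre1, which encodes the macrophage marker F4/80, and Cd74, and 5 of 16 passed adjusted p of 0.05 as lower (2.61% of all genes). That count was 9 without whole-body cohort Ctrl mouse 2, without mice 1 and 2 and with DESeq2. It was 1 without floxed Ctrl mouse 2, 3 or 4 or whole-body cohort Ctrl mouse 5. It was 2 without whole-body cohort Ctrl mouse 4 and 3 without its mouse 3 or 6. The count over all genes, in either direction, moved as well: 2065, 3757 and 1726 passed in the fits that gave 9. In the fits that gave 1, 142 to 245 passed, against 695 with all mice in edgeR. Adgre1 passed without each of the 11 mice in turn and Cd74 in 3 of these 11 fits. The list summed to 280 to 394 CPM in floxed Ctrl and 354 to 678 CPM in whole-body cohort Ctrl, and its median log2(FC) was -0.57.

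**Figure D5:**
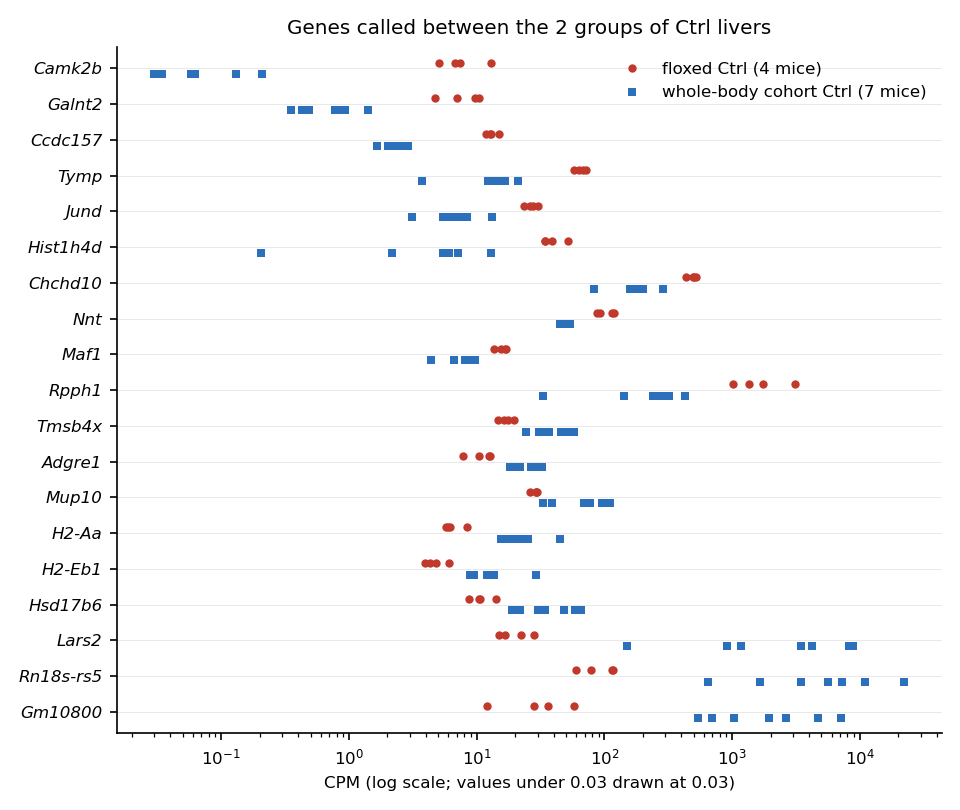
CPM (log axis, values under 0.03 drawn at 0.03) of 19 genes called between the groups, with 1 red circle for each floxed Ctrl mouse (4) and 1 blue square for each whole-body cohort Ctrl mouse (7). Camk2b is at 5.04 to 12.8 CPM in floxed Ctrl and at most 0.210 in whole-body cohort Ctrl, Lars2 lies the other way, and Maf1 is at 13.5 to 17.04 CPM in floxed Ctrl against 4.41 to 9.62 in whole-body cohort Ctrl.

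Maf1 itself, the repressor of RNA polymerase III whose deletion the study is about, was deleted in neither group. It was at 13.5, 15.6, 16.7 and 17.04 CPM in floxed Ctrl mice, and at 4.41 to 9.62 CPM with a median of 8.27 in whole-body cohort Ctrl mice. Every floxed Ctrl mouse lay above every whole-body cohort Ctrl mouse. The log2(FC) was 1.01 ± 0.17 (SE, adjusted p = 0.00824, edgeR's quasi-likelihood test), and it was 0.85 ± 0.09 without whole-body cohort Ctrl mice 1 and 2 and 0.91 ± 0.11 without mouse 2 alone, with an adjusted p under 0.05 (edgeR) but below the cutoff of 1 in both. Without floxed Ctrl mouse 3 or 4 or whole-body cohort Ctrl mouse 1 it was also just under 1, at 0.95, 0.97 and 0.97. Of 30 genes of the RNA polymerase III machinery, Maf1 was the only one called, and Polr3gl (0.56) was higher and Polr3k lower (-0.42) at adjusted p of 0.05 in the same test. With each of the 11 mice left out in turn, Polr3gl passed in 9 fits and Polr3k in 2, those without whole-body cohort Ctrl mouse 1 or mouse 2, while Maf1 passed adjusted p of 0.05 in all 11. Without mouse 2, 5 genes of the list were higher and 2 lower at adjusted p of 0.05. Without mice 1 and 2, 8 were higher and 2 lower. The count over all genes rose too: 1181 were higher among 2065 passing without mouse 2, and 2088 among 3757 without mice 1 and 2. With all mice 362 were higher among 695. The list had a median log2(FC) of 0.03.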

How the data were processed

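Liver RNA of each mouse was sequenced, and the authors deposited expected counts per gene, made with RSEM against mm10 (the submitters' processing notes list RSEM, edgeR 3.32.1 and limma). These expected counts were rounded to whole numbers and no column of per-sample values was left unused. Depth was 43564164 to 75682301 expected counts per mouse, and no replicates were near-identical. Groups followed the labels. CPM used TMM scaling, and levels per kilobase used the union of annotated exons, in ppm of each mouse's sum. Spread was the SD of log2(CPM) with a prior count of 2 at a mean CPM of at least 5. Floxed Ctrl was compared with whole-body cohort Ctrl by edgeR 4.0.16 (R 4.3.3) quasi-likelihood tests with Benjamini-Hochberg adjustment, on genes that reached 1 CPM in any mouse, and a gene was called at adjusted p under 0.05 and log2(FC) beyond 1 in either direction. Each standard error came from the log2(FC) and the F statistic.

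On simulated counts of 12651 genes for this comparison, 87% of genes changed 2-fold passed adjusted p and 54% met both cutoffs, as did 99% of those changed 4-fold. The changed genes were drawn only from those at a mean CPM of at least 5, while the test also covered lower ones. Each count was drawn independently, so libraries that stand apart as a whole were not modelled. A 2-fold change lies at the log2(FC) cutoff itself. Named genes were the 20 with the highest level per kilobase and the 10 with most counts, the 20 most variable of each group, those on both lists of 50, up to 3 members of each gene list on either, the 10 steadiest, Maf1, and up to 10 called genes in each direction without overlap at 5 CPM or more. Other genes named were chosen after their values were seen. Some members of the gene lists are not reported here. The groups, members and gene lists were chosen with earlier results of these data known. Alternatives were other scalings, filters, measures of spread and list lengths, DESeq2 1.42.0, limma-voom (limma 3.58.1), a replicate block, and leaving out mice. Intervals and floors cover counting error only. Promoter sequences came from RefSeq (GRCm38.p6).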

Additional observations from a re-analysis of the deposited data

Results flagged for a closer look

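Among the 20 most variable genes of each group, 1 mouse stood apart from the others by the ratio of its gap from the nearest mouse to the whole range of log2(CPM), beyond Dixon's critical value for 6 of 20 genes in floxed Ctrl and 5 of 20 in whole-body cohort Ctrl. The genes were chosen for a large SD in the same mice, so these ratios describe them, and the 1 in 20 groups that chance flags is no measure for them. In floxed Ctrl, mouse 1 was far above the other 3 for Saa2 (ratio 0.935), Saa1 (0.885), Lcn2 (0.885), Cxcl1 (0.877) and Mt2 (0.872), and mouse 3 was far below them for Pde2a (0.914). In whole-body cohort Ctrl, mouse 1 was far below the others for RP23-145I16.3 (0.887) and Gm12744 (0.747), mouse 2 for Sardhos (0.809), and mouse 7 for Gm23472 (0.799) and Gm23444 (0.775).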

How the results depend on the processing

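The count of genes called between floxed Ctrl and whole-body cohort Ctrl (226, with 695 at adjusted p under 0.05) depended on the settings. At a mean CPM of 5 or more, 109 were called. DESeq2 called 353, with 1726 at adjusted p under 0.05, and a fit over all 20 chow mice gave 1397 at adjusted p under 0.05. Leaving out each mouse in turn gave 98 to 396 calls and 142 to 2065 genes at adjusted p under 0.05. Without whole-body cohort Ctrl mice 1 and 2, an alternative chosen after seeing the data, the counts were 461 and 3757, and among nuclear protein-coding genes, also chosen after, 145 were called. The share of calls that were higher in floxed Ctrl was 53.5%, and it was 61.5% with library totals, 66.7% with limma-voom and 63.4% among nuclear protein-coding genes. With the replicate block both counts were 33, but the numbers do not pair these mice: deviations of same-numbered mice correlated at 0.00, 0.04, 0.25 and -0.11, and only mouse 3 correlated best with its own number. The 5 genes on both lists became 3 by the CV, 3 at a mean CPM of 1 or more, 16 with lists of 100 genes, 3 to 7 without each mouse in turn and 8 without whole-body cohort Ctrl mice 1 and 2. With lists of 100 genes, 50 of the floxed Ctrl list and 40 of the whole-body cohort Ctrl list were in the top 10% of SD of the other group, against 24 and 19, and the second was 29 without mice 1 and 2. The common biological coefficient of variation of whole-body cohort Ctrl was 13.6% without those mice. Chosen and counted per kilobase, the 10 most abundant genes held 43.5% in floxed Ctrl and 44.0% in whole-body cohort Ctrl. No log2(FC) of a named gene changed sign, and 104 of these values under the alternatives lost their call. The causes were not tested. A count of 0 allows up to 0.0396 to 0.0689 CPM in these libraries, and lower levels were not detectable.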

Other observations

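Nnt, the proton-pumping transhydrogenase of mitochondria, which carries a deletion in the C57BL/6J substrain, was singled out after its values were seen. It was at 88.2, 119, 115 and 92.2 CPM in floxed Ctrl mice, and at 44.7 to 54.1 CPM with a median of 49.9 in whole-body cohort Ctrl mice, with no overlap (log2(FC) 1.06 ± 0.10 (SE), adjusted p = 0.000145, edgeR's quasi-likelihood test). Scaled over all 29 livers, it was at 0.999 to 2.91 CPM in the HF floxed Ctrl livers. Those libraries hold 25544816 to 28591597 counts, all whole numbers, while 71.2% to 72.1% of the values of the chow floxed Ctrl libraries are whole. The study's methods give C57BL/6J for the floxed line, and the Nnt allele of these mice was not tested. Diet, this difference in the counts and any difference of line or substrain between the chow and HF mice cannot be told apart.

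Taf9 and Rps16 also split the 5 chow Maf1-/- livers of the whole-body cohort. On the scale of all 29 livers, Taf9 was at 1.10 CPM in Maf1-/- mouse 2 and 13.9 to 24.6 CPM in the other 4, and Rps16 was at 62.7 CPM in mouse 2 and 3.49 to 7.28 CPM in the other 4. Rpl36a-ps3 was at 0.617 CPM in mouse 2 and 28.4 to 50.6 CPM in the other 4. The cause was not tested.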
